A study of Mus musculus with 15 samples.

Results

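The genes described here mark T cells and natural killer (NK) cells, and they were followed in the mouse kidney after obstruction of a ureter. They are 10 of the 24421 genes of the deposited table, chosen by symbol: the CD3 chains Cd3d, Cd3e and Cd3g, the coreceptors Cd4 and Cd8a, the adhesion receptor Cd2, the kinase Lck, the granule genes Nkg7 and Gzma, and the cytokine receptor chain Il2rb. Total RNA of whole wild-type kidney was sequenced at day 14 in 15 libraries. UUO_Si kidneys (6 libraries) had unilateral ureteral obstruction (UUO) and a silicon-based diet, UUO kidneys (6 libraries) had the same obstruction and a normal diet, and sham kidneys (3 libraries) had a sham operation and a normal diet. No library here joined a sham operation with the silicon-based diet, so the contrast of UUO_Si with sham changes operation and diet together. The labels do not state strain, age or sex of the mice, nor that libraries came from separate animals, so the p-values measure the spread between these libraries, which may be technical. The kidneys were not sorted, and in such bulk RNA fewer cells of a type and less RNA per cell cannot be told apart.

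The T cell receptor recognises peptide on MHC molecules but cannot signal by itself. The invariant chains CD3 gamma, delta and epsilon, together with the zeta chain encoded by Cd247, carry the signal into the cell, where the kinase Lck, bound to the coreceptors CD4 or CD8, starts it by phosphorylating their tails. CD4 marks helper and regulatory T cells and reads MHC class II, and CD8 marks cytotoxic T cells and reads MHC class I. NK cells lack the T cell receptor, share the granule machinery of cytotoxic T cells, and depend on interleukin-15, which is received through the chain encoded by Il2rb. Ureteral obstruction is a standard model of tubular injury and fibrosis in which leukocytes enter the interstitium.

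All 3 CD3 genes lie in a cluster on mouse chromosome 9 (GRCm38), in which 40056 bases hold Cd3g to Cd3e. Cd3g (chr9:44969572-44980431, minus strand) and Cd3d (chr9:44981786-44987339, plus strand) are transcribed away from each other, with 1354 bases between their start sites, and Cd3e (chr9:44998740-45009627, minus strand) lies beyond Cd3d. The 250 bases before each start site are shown, from RefSeq's promoters on GRCm38.p6, because Cd3d went apart from its neighbours in the counts below. Capitals mark the ETS core AGGAAG and the RUNX core TGTGGT, on either strand (CTTCCT and ACCACA when reversed), the letters that factors of families active in lymphocytes can bind.
Cd3g (chr9:44980432-44980681, minus strand): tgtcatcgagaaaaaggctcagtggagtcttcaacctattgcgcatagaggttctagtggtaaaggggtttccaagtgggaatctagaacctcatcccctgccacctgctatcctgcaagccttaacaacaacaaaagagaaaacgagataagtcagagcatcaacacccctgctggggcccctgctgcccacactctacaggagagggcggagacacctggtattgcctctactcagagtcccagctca
Cd3d (chr9:44981536-44981785, plus strand): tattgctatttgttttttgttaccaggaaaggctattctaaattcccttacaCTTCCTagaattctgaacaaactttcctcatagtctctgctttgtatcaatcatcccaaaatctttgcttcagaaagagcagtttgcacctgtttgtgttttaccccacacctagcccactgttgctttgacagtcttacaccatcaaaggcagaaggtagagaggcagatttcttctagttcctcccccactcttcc
Cd3e (chr9:45009612-45009861, minus strand): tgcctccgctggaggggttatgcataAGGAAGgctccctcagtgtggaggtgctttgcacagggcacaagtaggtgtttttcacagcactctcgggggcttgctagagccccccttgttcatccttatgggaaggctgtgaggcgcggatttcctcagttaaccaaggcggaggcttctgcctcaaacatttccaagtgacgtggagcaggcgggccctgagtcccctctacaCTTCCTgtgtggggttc
The Cd3e window held 2 ETS cores, the Cd3d window held 1, and the Cd3g window held 0, and none of them held a RUNX core. The promoter table had 7 of the 10 genes, in 8 windows since Lck has more than 1 start site, and these windows held an ETS core in 5 cases and a RUNX core in 3. Of all 32817 windows of this length, 29.5% held the ETS core and 14% the RUNX core. The windows also held the E-box CANNTG (the same on either strand) in 7 of 8 cases, against 66.2% of all windows. E-box matches may share bases with the other motifs, and a match describes the letters of the window and is not a bound site.

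Libraries held 7754724 to 11465936 counts in UUO_Si, 11151023 to 15422613 in UUO and 5526642 to 8308121 in sham. The unit of level is CPM, with each scaled library set to 1000000 counts, and 1 count was worth 0.0633 to 0.189 CPM. Of 1463 olfactory and vomeronasal receptor genes, which belong to sensory neurons, 4 libraries had counts in 791 to 1264, against 84 to 139 in the other 11. The 4 were UUO_Si replicate 6, UUO replicates 5 and 6, and sham replicate 3, and they are called receptor-gene libraries here. Sham replicate 3 was also the shallowest library, at 5526642 counts, and its median receptor gene had 3 counts. It had the highest sham level of all 10 T and NK cell genes, at 1.64 times (Cd8a) to 18.5 times (Gzma) the mean of the other sham libraries, so the comparisons of the 10 genes with sham are given with and without it. Whether the signal of the receptor genes had a part in these levels was not tested. Leaving out the highest sham library lowers the sham mean by that choice. Larger estimates without sham replicate 3 are therefore not a separate result.

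Counts were low throughout. Summed over the 10 genes, the group totals were 3978 counts in UUO_Si, 5270 in UUO and 290 in sham. The summed level was 55.3 to 84.2 CPM in UUO_Si (median 67.2) and 41.0 to 84.4 CPM in UUO (median 68.8), against 10.7, 7.51 and 32.0 CPM in sham. Every obstructed kidney therefore lay above every sham kidney in the sum, with the nearest pair 41.0 CPM in UUO replicate 5 and 32.0 CPM in sham replicate 3. UUO_Si and UUO covered nearly the same range.

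**Figure D1:**
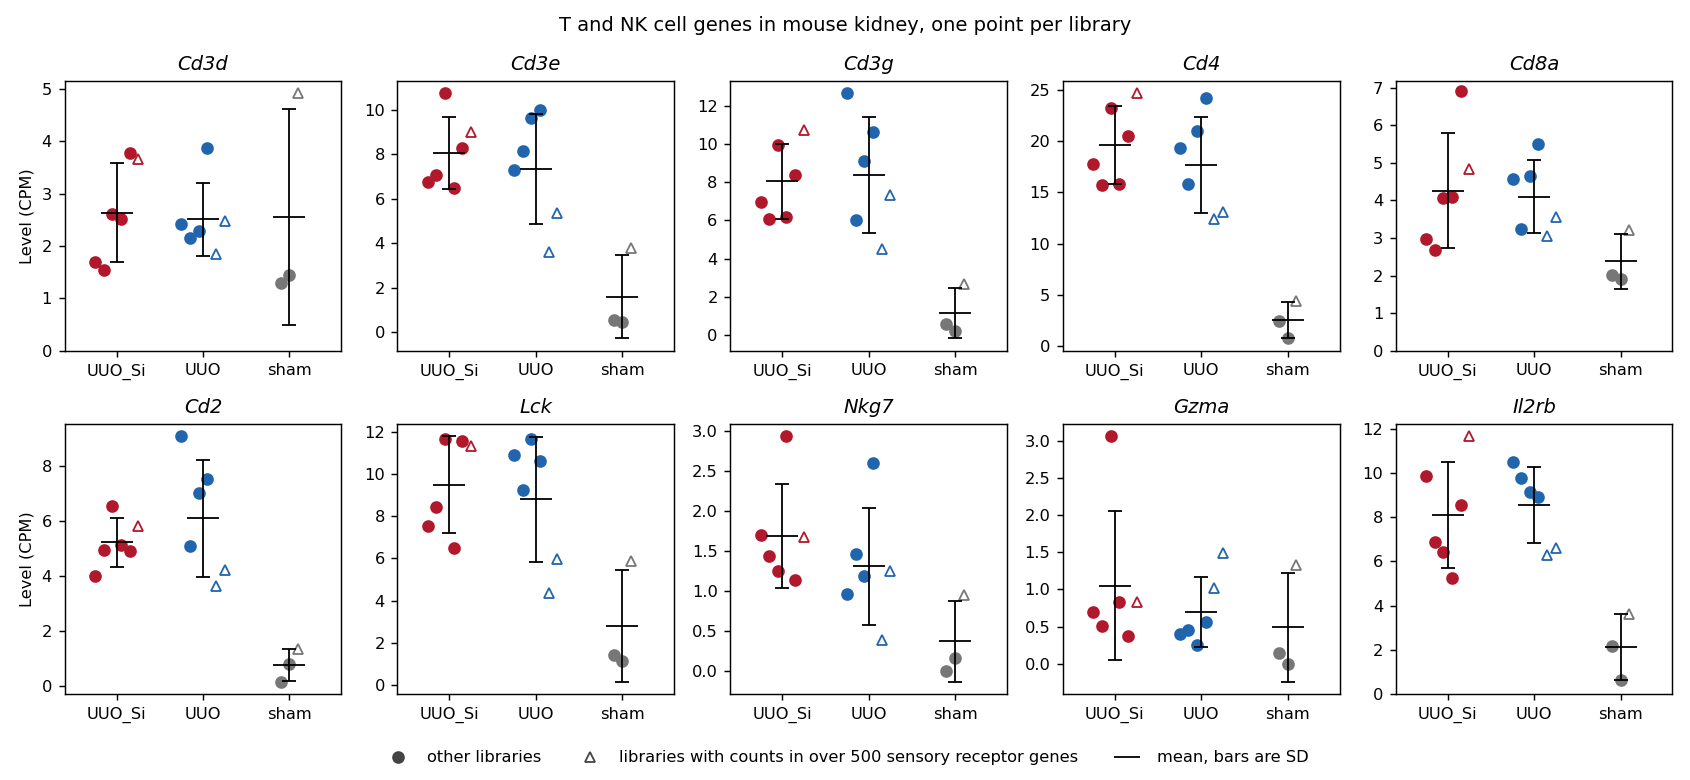
Level of each T and NK cell gene in CPM (vertical axis, own scale per gene), 1 point per library for UUO_Si, UUO and sham, with the mean and SD; open triangles are the 4 receptor-gene libraries. Cd4, Cd3g, Cd2 and Il2rb separate all 12 obstructed kidneys from the sham kidneys, Cd3d does not, and the triangle is the highest sham point in every panel.

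Obstruction on the normal diet was accompanied by higher levels of T cell genes (UUO against sham). With edgeR's quasi-likelihood test and Benjamini-Hochberg adjustment over 16752 genes, 6 of the 10 genes rose in UUO (Cd3e, Cd3g, Cd4, Cd2, Lck and Il2rb), where 27.5% of all tested genes were called higher. Cd3d, Cd8a, Nkg7 and Gzma did not pass. The median log2 fold change was 1.97 over the 10 genes and -0.04 over all tested genes, and all 10 estimates were above 0, as were 48.1% of all estimates. In 4 genes (Cd3g, Cd4, Cd2 and Il2rb) all UUO libraries lay above all sham libraries, as did 24.6% of all tested genes. DESeq2 called 8 of the 10 genes higher (28.4% of all genes) and limma-voom 8 (29.4% of all genes), in both cases with Cd8a and Nkg7 added. Without sham replicate 3, the highest sham library for all 10 genes, 8 of the 10 genes rose (28.4% of all genes called higher). Without the 4 receptor-gene libraries, 8 genes rose of 9 tested (30.1% of all genes called higher). The groups then separated in 10 of 10, with 2 sham libraries left, against 35.2% of all tested genes. Those 10 include Gzma, which was not tested in this fit and had 1 and 0 counts in the sham libraries left.

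Cd3e and Cd3g, the CD3 chains epsilon and gamma, rose together. Cd3e had 3.61 to 10 CPM in UUO (median 7.74, 57 to 158 counts), against 0.573, 0.479 and 3.79 CPM in sham (4, 3 and 20 counts). In 5 of 6 UUO libraries Cd3e exceeded every sham library, and UUO replicate 5 fell below sham replicate 3. The log2 fold change was 2.27 ± 0.5 (SE), or 4.82-fold, with an adjusted p of 0.00103 in edgeR's quasi-likelihood test. Cd3g had 4.50 to 12.7 CPM in UUO, with 71 to 168 counts, against 0.573, 0.16 and 2.65 CPM in sham, with 4, 1 and 14 counts. The groups did not overlap, and Cd3g was 7.87-fold higher in UUO (log2 2.98 ± 0.53, adjusted p = 0.000143, edgeR). Without sham replicate 3 the log2 fold changes were 3.77 for Cd3e and 4.44 for Cd3g. Exons of Cd3e overlap those of Gm48719 on the opposite strand, and reads of the pair cannot be told apart since the strand setting of the counting is not given in the sources used here.

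Cd3d, the delta chain, did not follow its neighbours. It had 1.84 to 3.86 CPM in UUO (median 2.35, 26.68 to 60.88 counts), against 1.29, 1.44 and 4.93 CPM in sham (8.51, 8.91 and 25.87 counts). Sham replicate 3 exceeded all 12 obstructed kidneys, while the other sham libraries lay below all 12. The log2 fold change was 0.01 ± 0.42, with a 95% interval of -0.89 to 0.91 and an adjusted p of 0.988 in edgeR. Without sham replicate 3 it was 0.88 (adjusted p = 0.0982), and without all 4 receptor-gene libraries it was 0.99 (adjusted p = 0.075), where Cd3e stood at 4.03 and Cd3g at 4.64. The ratio of Cd3d to Cd3g counts was 0.241 to 0.454 in UUO_Si and 0.19 to 0.405 in UUO, against 2.13, 8.91 and 1.85 in sham; the pair was picked after its values were seen, and no test was made. Cd3d was the only 1 of the 10 genes whose deposited value was not whole in any of the 15 libraries. Cd3e and Cd3g were whole in all. Such fractions can arise where reads are split between genes, but no annotated gene overlapped Cd3d. The source of its fractions was not tested, and the value of Cd3d is uncertain.

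Both coreceptors were measured, and Cd4 was the stronger signal. Cd4 had 12.4 to 24.2 CPM in UUO (median 17.6), against 2.44, 0.799 and 4.36 CPM in sham. In counts this was 158 to 382.25 per UUO library, against 17, 5.14 and 23.14 in sham, and the groups did not overlap. Cd4 was 7.12-fold higher in UUO (log2 2.83 ± 0.36, adjusted p = 4.28e-06, edgeR) and had the smallest p of the 10 genes; without sham replicate 3 the log2 fold change was 3.41. Its deposited values were not whole in 10 of the 15 libraries, so the uncertainty named for Cd3d applies to Cd4 too. No annotated gene overlapped Cd4 either. In mice, some macrophages and dendritic cells also carry Cd4, and markers of those cells moved in the same direction, as given further on.

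Cd8a had 3.04 to 5.51 CPM in UUO (median 4.07, 42 to 87 counts), against 2.01, 1.92 and 3.22 CPM in sham (14, 12 and 17 counts). In 5 of 6 UUO libraries Cd8a exceeded every sham library, and UUO replicate 5, at 3.04 CPM, lay below sham replicate 3. Its log2 fold change of 0.80 ± 0.33 missed the threshold (adjusted p = 0.0532, edgeR). Without sham replicate 3 it was 1.06 (adjusted p = 0.03), and without the receptor-gene libraries it was 1.20 (adjusted p = 0.0188), so both fits called it. Counts of Cd4 over Cd8a stood at 2.96 to 5.97 in UUO_Si (median 5.40) and 3.67 to 4.89 in UUO (median 4.30), against 1.21, 0.428 and 1.36 in sham. This ratio was also picked after its values were seen, without a test.

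Cd2 and Lck act at the contact of the T cell with its target. Cd2, which binds CD48 on the partner cell in mice, had 3.61 to 9.08 CPM in UUO (51 to 119 counts), against 0.143, 0.799 and 1.33 CPM in sham (1, 5 and 7 counts). The groups did not overlap, and at 8.37-fold Cd2 had the largest estimate of the 10 genes (log2 3.07 ± 0.46, adjusted p = 2.53e-05, edgeR), and the log2 value without sham replicate 3 was 3.71. Lck had 4.38 to 11.7 CPM in UUO (69 to 167.5 counts), against 1.43, 1.12 and 5.87 CPM in sham (10, 7 and 31 counts). Only UUO replicate 5 fell below the highest sham library. Lck was 3.25-fold higher in UUO (log2 1.70 ± 0.45, adjusted p = 0.00435, edgeR), and the log2 value was 2.77 with sham replicate 3 left out and 3.05 with the receptor-gene libraries left out. The annotated microRNA Mir8119 overlaps an exon of Lck on the same strand, and some Lck values were not whole.

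Il2rb, the receptor chain shared by interleukins 2 and 15, rose, while the granule genes were near the limit of detection. Il2rb had 6.28 to 10.5 CPM in UUO (80 to 141 counts), against 2.15, 0.639 and 3.60 CPM in sham (15, 4 and 19 counts). The groups did not overlap, and the log2 fold change was 2.03 ± 0.38, or 4.08-fold (adjusted p = 0.000245, edgeR), and 2.58 without sham replicate 3. Nkg7, a granule membrane protein of NK cells and cytotoxic T cells, had 0.38 to 2.6 CPM in UUO (6 to 41 counts), against 0, 0.16 and 0.947 CPM in sham (0, 1 and 5 counts). UUO replicate 5 overlapped the sham range, and the log2 fold change of 1.91 ± 0.79 just missed the threshold (adjusted p = 0.0514, edgeR). Nkg7 passed with sham replicate 3 left out (adjusted p = 0.00536) and with the receptor-gene libraries left out (adjusted p = 0.00196), where the sham group rested on 0 and 1 counts.

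Gzma, the serine protease granzyme A, had 0.254 to 1.49 CPM in UUO (3 to 18 counts), against 0.143, 0 and 1.33 CPM in sham (1, 0 and 7 counts). The highest UUO values, 1.01 and 1.49 CPM, came from replicates 5 and 6, both receptor-gene libraries, and so did the highest sham value. The log2 fold change was 0.60 ± 0.95, with a 95% interval of -1.41 to 2.61 (adjusted p = 0.615, edgeR). Without sham replicate 3, with 1 and 0 counts left in sham, Gzma still did not pass (adjusted p = 0.0728). Without the receptor-gene libraries Gzma fell below the filter on low counts and was not tested.

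**Figure D2:**
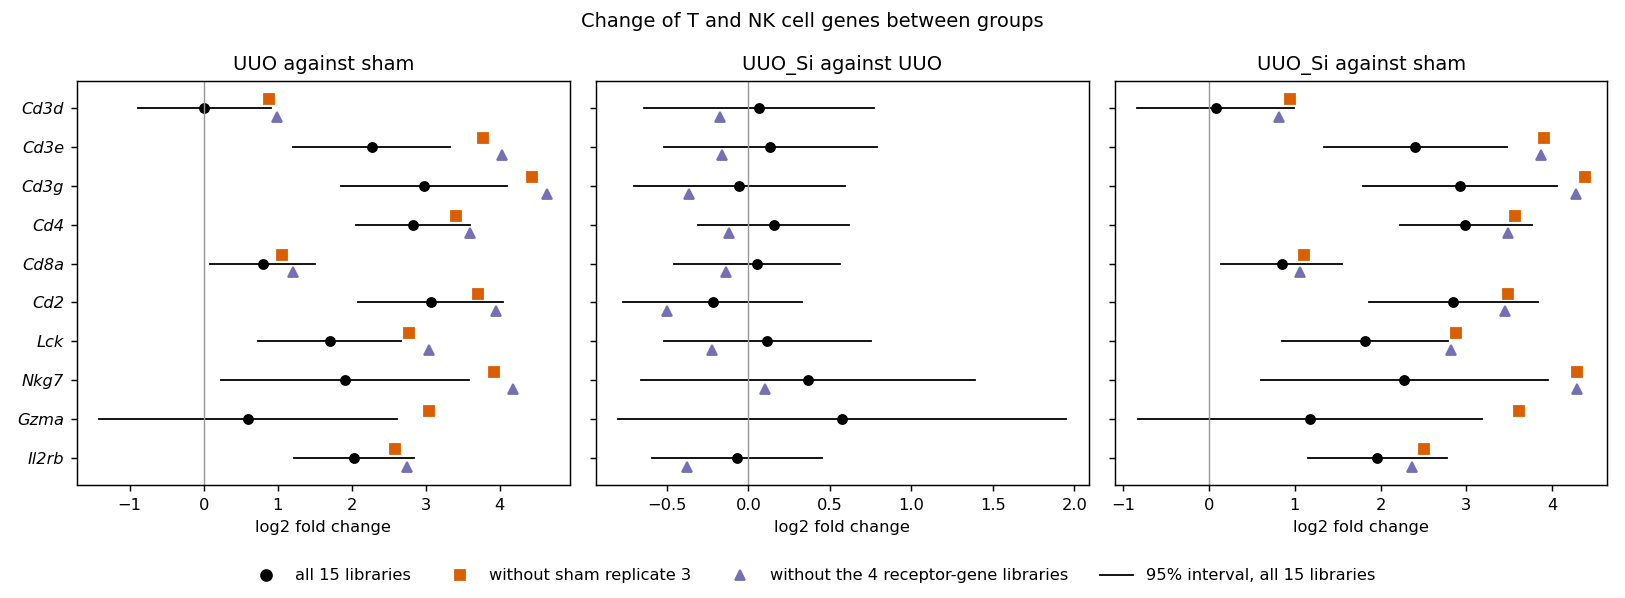
Log2 fold change of each T and NK cell gene (horizontal axis, own scale per panel) in the 3 comparisons, with the 95% interval from all 15 libraries (black), and the estimates without sham replicate 3 (squares) and without the 4 receptor-gene libraries (triangles). Against sham both reduced fits lie to the right of the full fit in every gene shown. Both leave out sham replicate 3, the highest sham library for all 10 genes, so this shift follows from the choice of library. UUO_Si against UUO stays near 0, with intervals that all include 0.

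The silicon-based diet was compared within obstructed kidneys, the question the study's title names (UUO_Si against UUO). None of the 10 genes passed, with edgeR's quasi-likelihood test finding 0 members called at adjusted p under 0.05 and 0 members at an unadjusted p under 0.05. DESeq2 and limma-voom also called 0 members. Of all 16752 genes, 0% were called by edgeR, 626 had an unadjusted p under 0.05, DESeq2 called 2 and limma-voom called 0. The median log2 fold change was 0.09 over the 10 genes and 0.00 over all tested genes, with 7 estimates above 0 and 3 below, where 50.3% of all estimates lay above 0. The groups overlapped in all 10 genes, where 0.107% of all tested genes separated with UUO_Si higher and 0.0955% with UUO_Si lower.

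The intervals show what these libraries could resolve. Cd4, the most abundant of the genes, had 15.7 to 24.7 CPM in UUO_Si (median 19.1) and 12.4 to 24.2 CPM in UUO (median 17.6). Its log2 difference was 0.15 ± 0.22, with a 95% interval of -0.31 to 0.62, that is 0.807-fold to 1.53-fold. For Cd8a the interval was 0.728-fold to 1.47-fold, for Il2rb 0.664-fold to 1.37-fold, and for Cd2 0.585-fold to 1.26-fold. Those intervals leave room for moderate differences in either direction.

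Cd2 had a mean of 5.22 ± 0.884 CPM in UUO_Si against 6.09 ± 2.12 CPM in UUO (SD, n = 6 each), with a log2 difference of -0.22 ± 0.26. Cd3e had 6.49 to 10.7 CPM in UUO_Si and 3.61 to 10 CPM in UUO, a log2 difference of 0.13 ± 0.31. Cd3g had 6.06 to 10.7 CPM in UUO_Si and 4.50 to 12.7 CPM in UUO, a log2 difference of -0.06 ± 0.3. Each of these is smaller than its standard error. Lck, with 6.49 to 11.7 CPM in UUO_Si and 4.38 to 11.7 CPM in UUO, gave 0.11 ± 0.3. Cd3d, with 1.54 to 3.77 CPM in UUO_Si and 1.84 to 3.86 CPM in UUO, gave 0.07 ± 0.33. The granule genes had the widest intervals: Nkg7 differed by 0.36 ± 0.49 on the log2 scale (0.633-fold to 2.62-fold), and Gzma by 0.57 ± 0.65 (0.573-fold to 3.87-fold). For Gzma a single library, UUO_Si replicate 3, held 27 of the 60 counts of UUO_Si, against 57 counts over all UUO libraries.

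The direction of these small estimates moved with the receptor-gene libraries. Among obstructed kidneys, these libraries also had sample names from another number series than the rest of their group. The labels do not say what the series means, and the series and the receptor-gene signal cannot be told apart there. UUO replicates 5 and 6 had the lowest Cd4 and Il2rb levels of the UUO group, and UUO_Si replicate 6 had the highest Cd4, Cd3g and Il2rb levels of the UUO_Si group. Without those libraries 8 of the 9 estimates lay below 0, between -0.50 (Cd2) and -0.12 (Cd4), and Nkg7 stood at 0.10. No adjusted p was under 0.936 in that fit, and 1 gene had an unadjusted p under 0.05. The groups still overlapped in all 10 genes, where 0.669% of all tested genes separated with UUO_Si higher. The share with UUO_Si lower and the share of all estimates below 0 were not taken for that fit. Marker lists given further on had medians there of -0.18 (pan-leukocyte), -0.14 (macrophage), -0.2 (dendritic cell), -0.0 (B and plasma cell) and -0.36 (fibroblast). The medians were 0.1 for neutrophil and mast cell genes and 0.34 for proximal tubule genes. The direction is thus not read as particular to the 10 genes.

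In UUO_Si against sham, 8 of the 10 genes rose, where 27.2% of all tested genes were called higher and, again, 48.1% of estimates lay above 0. DESeq2 called 8 (27.8% of all genes) and limma-voom 7 (29.4%). The 8 were the 6 called in UUO with Cd8a and Nkg7 added; both comparisons share the sham libraries, so the calls are given side by side and not as independent results. Cd4 was 7.92-fold higher in UUO_Si (log2 2.99 ± 0.36, adjusted p = 2.68e-06), Cd3g 7.57-fold (2.92 ± 0.53, adjusted p = 0.000192) and Cd2 7.19-fold (2.85 ± 0.47, adjusted p = 6.4e-05), all by edgeR's quasi-likelihood test. Cd3e rose 5.29-fold, Il2rb 3.88-fold and Lck 3.51-fold. Without sham replicate 3, 9 of the 10 genes rose (27.6% of all genes called higher), and the log2 fold changes were 3.57 for Cd4, 4.38 for Cd3g, 3.49 for Cd2, 3.90 for Cd3e, 2.51 for Il2rb and 2.88 for Lck. In 7 genes all UUO_Si libraries lay above all sham libraries, as did 24% of all tested genes; Cd3d, Cd8a and Gzma overlapped.

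The added calls were close to the threshold. Cd8a had 2.67 to 6.91 CPM in UUO_Si (26 to 58 counts), against 2.01, 1.92 and 3.22 CPM in sham, with a log2 fold change of 0.85 ± 0.34 and an adjusted p of 0.0433 in edgeR. The call was lost in limma-voom (adjusted p = 0.103), in a fit of the pair of groups alone (0.0754), under the stricter filter on low counts (0.056), with the replicate number as a block (0.152), and without sham replicate 1 or 2 or any of UUO_Si replicates 3 to 6. Nkg7 had 1.13 to 2.93 CPM in UUO_Si (9 to 28 counts), against 0, 0.16 and 0.947 CPM in sham, without overlap (log2 2.28 ± 0.79, adjusted p = 0.0233, edgeR). Its call was lost without sham replicate 1 (adjusted p = 0.0992) or sham replicate 2 (adjusted p = 0.0971).

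Cd3d had 1.54 to 3.77 CPM in UUO_Si and did not pass (log2 0.07 ± 0.43, adjusted p = 0.897, edgeR), nor without sham replicate 3 (log2 0.94, adjusted p = 0.0813). Gzma had 0.377 to 3.05 CPM in UUO_Si (3 to 27 counts) and did not pass either (log2 1.17 ± 0.95, adjusted p = 0.316), but without sham replicate 3 it did (adjusted p = 0.0334), where sham held 1 and 0 counts. Without the 4 receptor-gene libraries 8 genes rose of 9 tested, where 30.4% of all genes were called higher. The groups separated in 10 of 10, against 33.3% of all tested genes, and those 10 include Gzma, which was not tested in this fit.

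Levels of different genes can be compared per length of exon. In CPM per kb, Cd4 was highest of the 10 in UUO_Si (mean 4.86) and in UUO (4.37), followed by Lck and Cd2 (3.24 and 3 in UUO_Si, 3.01 and 3.50 in UUO), and Gzma was lowest (1.05 in UUO_Si, 0.694 in UUO). In sham the order of the means differed, with Cd3d highest at 1.41 CPM per kb, Lck next at 0.959 and Cd3g lowest at 0.345. These means rest largely on sham replicate 3, and below Cd3d the order changed between the sham libraries. Cd3g was the lowest in none of them, with Nkg7 at 0 in sham replicate 1 and Gzma at 0 in sham replicate 2. Per kb, Cd3d stood above Lck in each of the 3 sham libraries (0.711, 0.793 and 2.71 CPM per kb for Cd3d, and 0.489, 0.382 and 2 for Lck), and below it in all 12 obstructed kidneys. This pair was also picked after its values were seen, without a test, and the value of Cd3d is uncertain. In sham replicates 1 and 2 it rests on 8.51 and 8.91 counts of Cd3d and 10 and 7 counts of Lck. Among obstructed kidneys the lowest library for 6 of the 10 genes was UUO replicate 5.

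Other genes of T and NK cells were described from 5 lists. Of 75 genes, 71 were in the table and 59 were tested; Trac, Trbc1, Trbc2 and Trdc, the constant segments of the T cell receptor, were not analysed here. In UUO against sham 28 of 59 rose and 3 fell, where 27.5% of all tested genes were called higher, with a median log2 fold change of 1.43. Without the receptor-gene libraries 41 of 57 rose and 2 fell, where 30.1% of all genes were called higher. In UUO_Si against UUO none passed in edgeR, and in UUO_Si against sham 32 rose and 4 fell, where 27.2% of all tested genes were called higher.

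Of 14 tested genes of the receptor complex and its proximal signalling, 10 rose in UUO and none fell (median log2 1.49). In the same comparison 27.5% of all tested genes were called higher. Cd247, the zeta chain, averaged 15.8 ± 2.25 CPM in UUO and 8.21 ± 0.646 CPM in sham (SD, n = 6 and 3; log2 0.94 ± 0.15, adjusted p = 5.67e-05, edgeR). Its sham libraries were close together, unlike those of Cd3e and Cd3g. Lcp2, the adaptor SLP-76, rose by 1.85 ± 0.24 on the log2 scale, Ptpn22, a phosphatase that restrains Lck, by 2.53 ± 0.32, and Rhoh, a small GTPase of blood cells, by 1.89 ± 0.36. The list's count went down to 6 without sham replicate 2, where 4125 of all 17799 genes were called higher. It went up to 13 without sham replicate 3, where 28.4% of all genes were called higher.

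Of 11 costimulatory and checkpoint genes 4 rose and 1 fell, a share of higher calls not far from the 27.5% of all tested genes. The number called was 9 without sham replicate 3 and 3 without sham replicate 1 or 2. Summed over the 11 genes, sham replicate 3 had 65.9 CPM, above the highest UUO_Si (53.6) and UUO (48.6) libraries. Sham replicates 1 and 2 had 23.8 and 25.6 CPM. Tnfrsf9, the costimulator 4-1BB, averaged 2.89 ± 0.561 CPM in UUO and 0.253 ± 0.437 CPM in sham (log2 3.64 ± 0.72, adjusted p = 0.000394, edgeR), with 0 counts in all sham libraries but 1. Havcr2, which encodes TIM-3 and is also carried by myeloid cells, rose by 2.2 ± 0.33, and Ctla4, the inhibitory receptor that competes with CD28, by 2.36 ± 0.81 (adjusted p = 0.0213), a call lost without sham replicate 1 (adjusted p = 0.0953) or sham replicate 2 (0.0879). Tigit, another inhibitory receptor, fell: 6.02 to 15.7 CPM in UUO, against 15.5 to 44.5 CPM in sham (log2 -1.65 ± 0.34, adjusted p = 0.000527). Its mean in sham was 25.8 CPM, far above the 1.61 CPM of Cd3e there. Whether the Tigit signal came from T or NK cells was not tested.

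Among 16 transcription factors, homing and memory receptors 7 rose and 2 fell, where 4609 of all 16752 tested genes were called higher and 4427 lower. Tcf7, the factor TCF-1 of naive and memory T cells, averaged 19.7 ± 2.73 CPM in UUO and 2.2 ± 0.763 CPM in sham (log2 3.13 ± 0.22, adjusted p = 3.94e-09, edgeR). Ccr7, the receptor that guides lymphocytes and dendritic cells to lymph nodes, had 2.92 to 5.70 CPM in UUO, against 0.143 to 0.189 CPM in sham, which was 1 count in each sham library. Bcl11b, a factor of T cell commitment, fell by 0.60 on the log2 scale (SE 0.22, adjusted p = 0.033, edgeR), a call lost without sham replicate 1 or 3 or UUO replicate 2, 5 or 6 (adjusted p up to 0.201).

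Of 16 tested NK and granule genes 6 rose and none fell, where 27.5% of all tested genes rose; 5 were called without sham replicate 1 or 2, and 10 without sham replicate 3. Klrk1, the activating receptor NKG2D, averaged 5.75 ± 1.13 CPM in UUO and 1.57 ± 1.29 CPM in sham (log2 1.92 ± 0.36, adjusted p = 0.000228, edgeR). Ccl5, a chemokine of activated T and NK cells, rose by 2.90 ± 0.56, Cd244, a receptor for CD48, by 2.01 ± 0.4, and Srgn, the granule proteoglycan serglycin, by 1.35 ± 0.17. Gzmk was at 0 in all sham libraries, against 50 counts over the UUO libraries. Only 2 of 12 T cell cytokine genes were tested: Tnf rose by 1.95 ± 0.53 (adjusted p = 0.00517), and Il5 did not pass (log2 -0.48 ± 0.7). The others held few counts, with Il10 at 0 in sham and both Il17a and Il22 at 0 in UUO_Si. Over all 15 libraries these held only 20, 8 and 15 counts, so the zeros are not read as differences. Il17f had 22 counts in sham, 4 in UUO and 5 in UUO_Si. Summed over the 12 genes, sham replicate 3 had 13.5 CPM, above the highest UUO_Si (7.35) and UUO (7.36) libraries. The other sham libraries had 2.44 and 1.12 CPM.

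The partners of Il2rb moved in both directions. Of 9 tested genes of the interleukin-2 and interleukin-15 pathway 4 rose in UUO and 5 fell. Of all 16752 tested genes, 4609 were called higher and 4427 lower. Il2rg, the common gamma chain, averaged 20 ± 3.41 CPM in UUO and 4.10 ± 2.27 CPM in sham (log2 2.32 ± 0.28, adjusted p = 2.37e-06, edgeR), and Il2ra, the chain that gives high affinity for interleukin-2, rose by 1.28 ± 0.32. The receptor-bound kinases Jak1 and Jak3 rose by 0.81 ± 0.09 and 0.62 ± 0.21, and the call of Jak3 was lost without any 1 of the sham libraries (adjusted p = 0.0603, 0.0629 and 0.0508). Il15 had 6.53 to 11.7 CPM in UUO, against 16.8 to 21.8 CPM in sham (log2 -1.15 ± 0.19, adjusted p = 5.57e-05), and Il15ra, which presents the cytokine to Il2rb, had 8.16 to 15.1 CPM in UUO, against 26.3 to 44.3 CPM in sham (log2 -1.59 ± 0.28). Stat5a, Stat5b and Cish, the transcription factors downstream and their target, were the other genes that fell.

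Genes for partners of T cells on other cells mostly rose in UUO, with 8 of 10 called higher and none lower. Of all tested genes 27.5% were called higher, and 4427 of 16752 were called lower. Cd48, the partner of Cd2, averaged 11.7 ± 0.81 CPM in UUO and 1.33 ± 0.998 CPM in sham (log2 3.20 ± 0.34, adjusted p = 4.3e-07, edgeR). Cd86 and Icosl, ligands of CD28 and ICOS, rose by 1.72 ± 0.22 and 1.29 ± 0.19. Cxcl16, the chemokine that attracts CXCR6-bearing T cells, averaged 182 ± 13.2 CPM in UUO and 37.0 ± 2.76 CPM in sham (log2 2.30 ± 0.12, adjusted p = 2.18e-10).

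Among markers of other leukocytes, the pan-leukocyte and macrophage genes moved with the T and NK cell genes, and the other lists did so in part. In UUO against sham 27.5% of all tested genes were called higher, and 4427 of 16752 were called lower. All 10 pan-leukocyte genes rose in UUO (median log2 2.91), with a summed level of 402 to 605 CPM in UUO_Si and 478 to 592 CPM in UUO, against 65.7 to 117 CPM in sham. All 12 macrophage and monocyte genes rose (median log2 3.21), at 1071 to 1572 CPM in UUO_Si and 1187 to 1484 CPM in UUO, against 133 to 217 CPM in sham. Of 10 dendritic cell genes 5 rose (173 to 250 CPM in UUO_Si, 163 to 253 CPM in UUO, 78.2 to 92.3 CPM in sham). Of 8 B and plasma cell genes 2 rose (0 without sham replicate 1 or 2, and 4 without sham replicate 3), with a median log2 fold change of 0.44 and 3 estimates below 0, and of 5 tested neutrophil and mast cell genes 2 rose. All 8 proximal tubule genes fell (701 to 2027 CPM in UUO_Si and 895 to 1712 CPM in UUO, against 14896 to 18199 CPM in sham), and all 8 fibroblast and matrix genes rose (5132 to 6818 CPM in UUO_Si and 5883 to 11064 CPM in UUO, against 401 to 601 CPM in sham). No marker of these lists was at 0 in every library of a group, and the part of these cells in the T and NK cell results was not tested.

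Sham replicate 3 was again highest of the sham libraries for pan-leukocyte genes (117 CPM), macrophage genes (217 CPM), and B and plasma cell genes (22.5 CPM). The same held for dendritic cell genes (92.3 CPM) and neutrophil and mast cell genes (72.9 CPM). It also held outside leukocytes, for fibroblast and matrix genes (601 CPM). This library was lowest of sham for proximal tubule genes (14896 CPM) and for the interleukin-2 and interleukin-15 pathway (416 CPM).

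**Figure D3:**
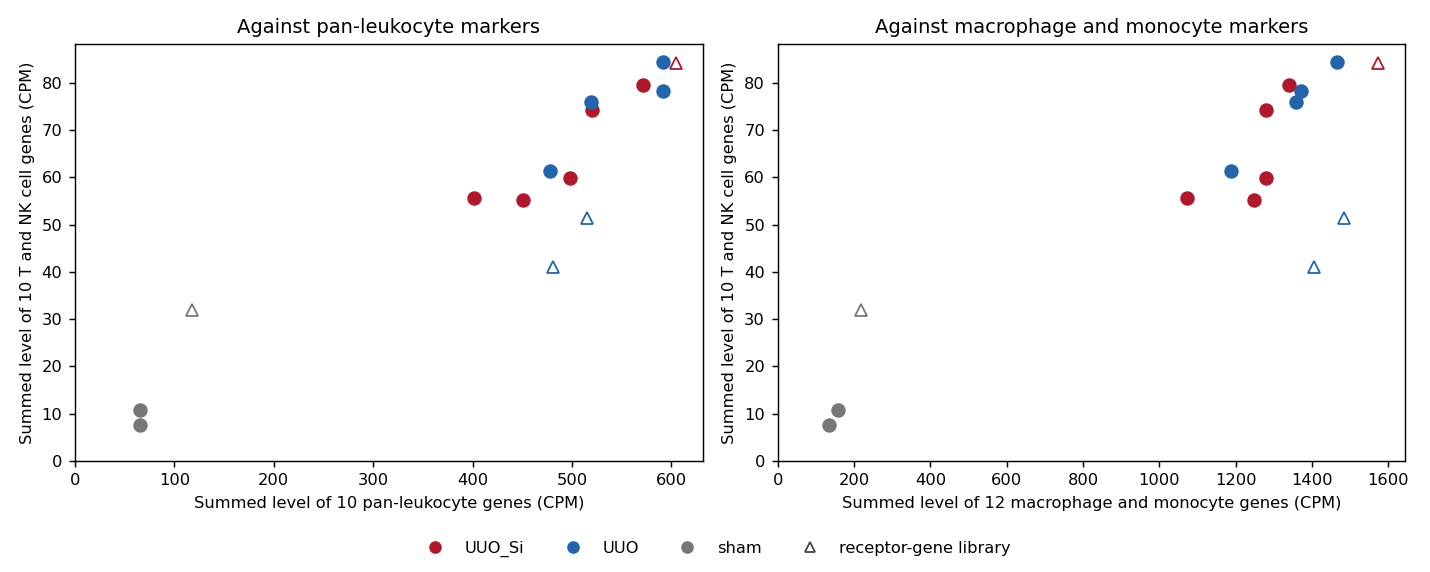
Summed level of the 10 T and NK cell genes (vertical axis, CPM) against the summed level of 10 pan-leukocyte genes (left) and 12 macrophage and monocyte genes (right), 1 point per library; open triangles are receptor-gene libraries. Obstructed kidneys of both diets lie together at the upper right and sham kidneys at the lower left, with UUO replicates 5 and 6 low on the vertical axis (41.0 CPM in replicate 5) for their leukocyte level.

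In profile over the 15 libraries, the genes nearest to the sum of the 10 were Cd33, Camk1d, Gimap7, Myo1g and Plxnc1. Their root mean square distances, between log2 levels centred per gene, were 0.206, 0.245, 0.247, 0.252 and 0.254, against a median of 1.07 and a 5th percentile of 0.563 over 16742 genes. Cd33 averaged 12.1 ± 2.06 CPM in UUO_Si, 11.2 ± 1.55 CPM in UUO and 2.91 ± 2.57 CPM in sham. The likeness is a description of libraries that share depth and group, with obstructed kidneys high and sham kidneys low.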

How the data were processed

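The authors deposited unnormalised expected counts (fractions occur) for 24421 gene symbols in 15 kidney libraries; per library 79 to 83% of values were whole, and values were rounded here before testing. RNA was kept in RNAlater, extracted with RNeasy and prepared with the SMARTer Stranded Pico kit, per the labels' protocols. Per the submitters' processing notes the reference was mm10 and the tools were TopHat2 2.1.1 and Cuffdiff 2.2.1; the step that made the counts, its strand setting and its annotation are not given in the sources used here. GENCODE M21 on GRCm38 matched 23376 symbols (95.7%) and gave positions and exon lengths.

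Genes that passed edgeR's filter at a minimum count of 10 (16752) entered 1 fit of all 15 libraries with a mean per group, using edgeR 4.0.16 (TMM scaling, robust quasi-likelihood test) in R 4.3.3. P-values were adjusted with Benjamini-Hochberg over all of them and called at 0.05. The standard error of a log2 fold change was worked back from the F statistic, and levels used the TMM-scaled library size. CPM errors are SD. The fits were tested on simulated data. Alternatives were RLE scaling, no filter, a minimum count of 30, DESeq2 1.42.0, limma-voom 3.58.1 with sample weights, the groups of a comparison alone, each library left out, the receptor-gene libraries left out, and the replicate number as a block. A library was called a receptor-gene library where over 500 receptor genes had a count.

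The 10 genes, the lists and the rules were chosen with earlier results of these data known. Named from each list were up to 4 genes with the smallest p in UUO against sham and those called against the list's median. Some genes this rule names are not reported here. Cd48 stands in 2 lists, and Cd244a was read under its older symbol Cd244. No 2 libraries of the same group agreed within sampling noise, and pairs across groups were not compared in this way. Figures were drawn with matplotlib 3.10.9 in Python 3.11.15.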

Additional observations from a re-analysis of the deposited data

Results flagged for a closer look

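In 3 of the 20 sets formed by a gene and an obstructed group, the highest library stood apart from the other 5 by a gap test at 95%, where chance gives about 1 in 20. Nkg7 had 2.93 CPM (28 counts) in UUO_Si replicate 4, against 1.13 to 1.69 CPM in the other UUO_Si libraries. Gzma had 3.05 CPM (27 counts) in UUO_Si replicate 3, against 0.377 to 0.837 CPM in the others. Cd3d had 3.86 CPM (60.88 counts) in UUO replicate 4, against 1.84 to 2.48 CPM in the other UUO libraries, and its value is uncertain as its counts were not whole.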

How the results depend on the processing

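The 6 genes called in UUO against sham (Cd3e, Cd3g, Cd4, Cd2, Lck and Il2rb) stayed called under every alternative run; the count of called members was 6 to 8 there, 0 in UUO_Si against UUO, and 6 to 9 in UUO_Si against sham. Over all genes, leaving out a library gave 7719 to 9114 calls in UUO against sham, 0 in UUO_Si against UUO and 7693 to 8800 in UUO_Si against sham; DESeq2 called 2 genes in UUO_Si against UUO. In UUO against sham, Cd8a and Nkg7 passed in DESeq2 (adjusted p = 0.048 and 0.0256), limma-voom (0.0278 and 0.0177), without sham replicate 3 (0.03 and 0.00536), without UUO replicate 5 (0.0422 and 0.0264) and without the receptor-gene libraries (0.0188 and 0.00196), and Cd8a also passed without UUO replicate 2 (0.0457).

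Apart from Gzma in UUO_Si against UUO (0.57, and -0.09 without UUO_Si replicate 3), reversals concerned estimates between -0.07 and 0.15, and the cause was not tested. Cd3d had a log2 fold change of -0.04 in UUO against sham under the stricter filter, and -0.30 to 0.88 with a library left out; in UUO_Si against sham the range was -0.24 to 0.94. In UUO_Si against UUO, limma-voom gave -0.12 for Lck, -0.27 for Cd8a, -0.06 for Cd4, -0.25 for Cd3d and -0.04 for Cd3e. Without the receptor-gene libraries the values were -0.23 for Lck, -0.14 for Cd8a, -0.12 for Cd4, -0.17 for Cd3d and -0.16 for Cd3e. With a library left out, the ranges that crossed 0 were -0.09 to 0.91 for Gzma, -0.21 to 0.03 for Il2rb, -0.03 to 0.21 for Lck, -0.13 to 0.16 for Cd8a, -0.19 to 0.11 for Cd3g, -0.06 to 0.23 for Cd3d and -0.01 to 0.24 for Cd3e.

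Replicate numbers did not pair the samples in general: same-numbered libraries had correlations of deviations of -0.39 to 0.754. The highest, 0.754, was between UUO_Si replicate 6 and UUO replicate 6, both receptor-gene libraries. With the replicate number as a block, edgeR called 8433 genes and 6 members in UUO against sham, 0 and 0 in UUO_Si against UUO, and 8268 and 7 in UUO_Si against sham, where Cd8a was lost; Cd3d stood at -0.11 and -0.09 in the comparisons with sham. Counts were lowest for the granule genes, as sham held 6 counts of Nkg7 and 8 of Gzma.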
